A study of Homo sapiens with 4 samples.

Results

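Polyamines (putrescine, spermidine and spermine) are small charged metabolites that bind nucleic acids. The 10 genes described here encode the enzymes that make and break them and the proteins that regulate the first of those enzymes. They were taken by gene symbol, as ODC1, AMD1, SRM, SMS, OAZ1, OAZ2, AZIN1, SAT1, SMOX and PAOX, and all 10 were found among the 60617 gene entries of the deposited table. RNA-seq was done on SKNMC, an established human Ewing sarcoma cell line, kept for 24 h in 1 µM CBL0137 (n = 2 libraries) or in the DMSO vehicle (n = 2 libraries). CBL0137, a DNA-binding compound of the curaxin class, is known to hold the histone chaperone FACT on chromatin, and the series asks what inhibiting FACT does in Ewing sarcoma. All libraries thus come from a single cell line. Whether the libraries of a group are separate cultures is not labelled, so p-values reflect only the spread between these libraries, which may be technical.

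In the textbook pathway, ornithine decarboxylase (ODC1) makes putrescine, and spermidine synthase (SRM) and spermine synthase (SMS) extend it with aminopropyl groups that the AMD1 enzyme supplies from S-adenosylmethionine. Antizymes (OAZ1, OAZ2) bind ODC1 protein and send it to the proteasome, and the antizyme inhibitor AZIN1, a relative of ODC1 without its activity, takes antizyme up. Catabolism runs through acetylation by SAT1 and oxidation by PAOX, or through direct oxidation of spermine by SMOX. Fast-growing tumour cells are known for high polyamine synthesis, and ODC1 and SRM are known targets of the transcription factor MYC.

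The CBL0137 libraries held 20767817 and 21061892 reads in genes and the DMSO libraries 20086664 and 19625517. The 10 polyamine genes took 0.145% and 0.146% of these reads with CBL0137, against 0.139% and 0.136% with DMSO. All 8 markers of Ewing sarcoma, among them CD99, NKX2-2 and FLI1, were present. In CPM (read counts scaled to the TMM-adjusted library size), they summed to 1066 and 1116 with CBL0137 and 1904 and 1893 with DMSO. Of these 8, 4 were called lower, against 15.1% of all tested genes, and 4 were not called (calls are defined below). Most of the lower sum was CCK and PRKCB. CCK had 89.5 and 90.01 CPM with CBL0137 against 475 and 459 CPM with DMSO. PRKCB had 169.8 and 174 CPM with CBL0137 against 389.7 and 392.1 CPM with DMSO. Of the other markers, 4 of 4 for muscle and 3 of 4 for leukocytes stayed under 1 CPM in every library, the leukocyte exception being PTPRC at 107 and 124 CPM with CBL0137 and 162 and 162 CPM with DMSO. The summed epithelial markers stood at 113 and 114 CPM with CBL0137 against 51.2 and 52.0 CPM with DMSO, most of it KRT18. The endothelial ones stood at 4.14 and 4.79 CPM against 2.80 and 2.42 CPM. Of the tested markers, 3 of 3 epithelial and 1 of 2 endothelial were called higher, against 18.2% of all tested genes. Their part in the results below was not tested.

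SAT1 and OAZ2 rose and SRM fell with CBL0137. In these bulk libraries, a change in the number of cells that express a gene and a change in RNA per cell cannot be told apart. Calls required an edgeR adjusted p under 0.05 together with a fold above 1.5. Of the 9 polyamine genes that passed the filter on low counts, 2 were called higher and 1 lower, while 18.2% of all 17374 tested genes were called higher, 15.1% lower and 33.4% in either direction. The adjusted p alone, with no fold limit, was under 0.05 for 7 of the 9, against 61.7% of all tested genes. The libraries of the 2 groups did not overlap in CPM for 7 of the 9, against 79.9% of all tested genes. DESeq2 also called 2 higher and 1 lower, against 10.9% of its tested genes in each direction, and limma on FPKM did so against 10.7% higher and 7.85% lower. With a fold above 2, 1 was called higher and 1 lower, against 11.4% and 7.01% of all tested genes. The members' median log2 fold change was -0.07, against 0.01 over all tested genes. These shares are close to the background or rest on few genes, so they say little about the group as a whole. With library size alone in place of TMM scaling, the median over all genes moved up by 0.16, and values near 0 are read relative to that shift.

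**Figure D1:**
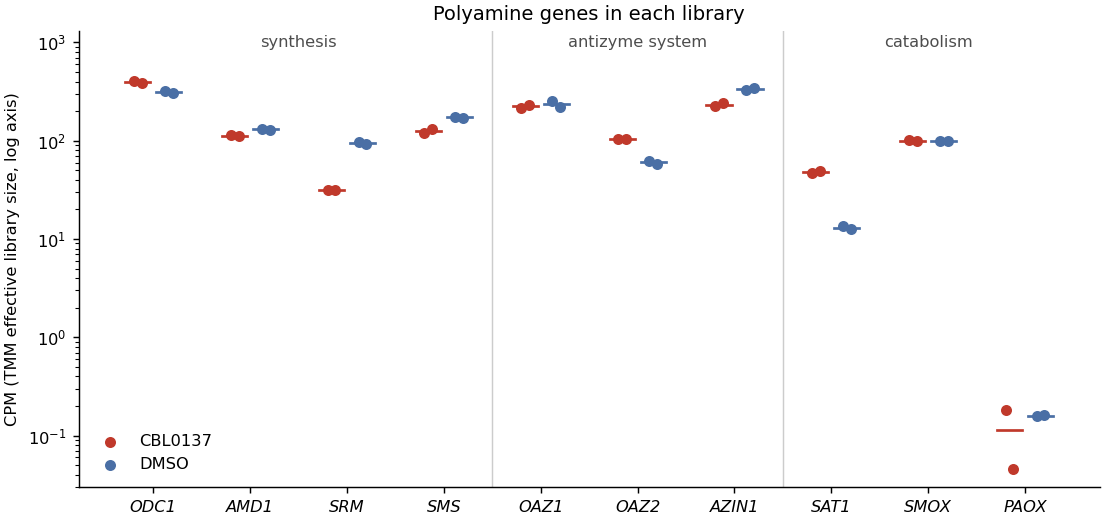
CPM of each polyamine gene in each library (points, log axis; red CBL0137, blue DMSO) with the mean of the 2 libraries (lines). SAT1 and OAZ2 stand higher and SRM lower with CBL0137, SMOX is near 100 CPM in both groups, and PAOX is near the detection limit.

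The synthesis genes did not move together. SRM (ENSG00000116649, GRCh37 chromosome 1, 11114641 to 11120077, minus strand) had 31.7 and 31.4 CPM with CBL0137, against 96.4 and 92.5 CPM with DMSO. The groups lay far apart, with both CBL0137 libraries at the same low level. The log2 fold change was -1.58 (SE 0.07, edgeR adjusted p = 5.8e-23), which is 2.99-fold lower and ranks SRM at percentile 2.83 of all tested genes. The deposited FPKM gave 17.8 and 17.7 with CBL0137 against 49.96 and 50.09 with DMSO. Called lower in each of the 13 alternative fits, SRM ranged between -1.91 and -1.42.

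ODC1, the enzyme of the first step (ENSG00000115758, chromosome 2, 10580094 to 10588453, minus strand), had 407 and 390.2 CPM with CBL0137, against 318 and 307 CPM with DMSO. Both CBL0137 libraries were above both DMSO libraries. On the log2 scale the difference was 0.35 (SE 0.05, edgeR adjusted p = 1.9e-07), and it stayed under the fold limit in each of the 13 alternative fits, between 0.31 and 0.51. Within the same libraries, ODC1 and SRM were thus displaced in opposite directions, one under the fold limit and the other past it.

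AMD1, which encodes S-adenosylmethionine decarboxylase (ENSG00000123505, chromosome 6, 111195973 to 111220082, plus strand), had 114 and 111 CPM with CBL0137 and 132 and 129 CPM with DMSO. SMS (ENSG00000102172, chromosome X, 21958827 to 22012955, plus strand) had 120.1 and 132 CPM with CBL0137 and 174 and 172 CPM with DMSO. In both genes the CBL0137 libraries were the lower ones and the groups did not overlap. Neither reached the fold limit: AMD1 was at -0.21 (SE 0.06, edgeR adjusted p = 0.00096) and SMS at -0.46 (SE 0.06, edgeR adjusted p = 2.6e-09). Over the 13 alternative fits SMS ranged between -0.53 and -0.30. AMD1 ranged between -0.25 and -0.05. The AMD1 difference did not pass with library size alone (-0.05, edgeR adjusted p = 0.405), the GC and length trend removed (-0.07, edgeR adjusted p = 0.228) or FPKM + 1 (-0.10, limma adjusted p = 0.178). SRM fell further than SMS, the synthase of the following step, so that SMS had 3.79 and 4.20 reads per SRM read with CBL0137 against 1.80 and 1.86 with DMSO.

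The promoter windows of ODC1, SRM and SAT1 are shown because they set genes that differ in response beside each other for the E-box CACGTG, the motif bound by MYC with MAX. Each window runs from 250 bases before to 50 after a RefSeq transcript start (RefSeq, GRCh38.p14), 5′ to 3′ on the gene's strand, with CACGTG in capitals. Of the 10 genes, 7 had entries, in 10 windows, AZIN1, SMOX and PAOX being the others. The ODC1 window shown is the one of its 2 entries that holds the motif (chr2:10447963-10448262, minus strand). The SRM window is chr1:11059969-11060268 (minus strand) and the SAT1 window chrX:23782923-23783222 (plus strand).
ODC1: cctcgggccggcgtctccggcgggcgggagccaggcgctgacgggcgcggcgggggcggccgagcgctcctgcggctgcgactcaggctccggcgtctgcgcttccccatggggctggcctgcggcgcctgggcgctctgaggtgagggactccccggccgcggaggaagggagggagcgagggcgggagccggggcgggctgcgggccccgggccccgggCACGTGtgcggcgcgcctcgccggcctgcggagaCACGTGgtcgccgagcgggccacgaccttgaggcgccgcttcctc
SRM: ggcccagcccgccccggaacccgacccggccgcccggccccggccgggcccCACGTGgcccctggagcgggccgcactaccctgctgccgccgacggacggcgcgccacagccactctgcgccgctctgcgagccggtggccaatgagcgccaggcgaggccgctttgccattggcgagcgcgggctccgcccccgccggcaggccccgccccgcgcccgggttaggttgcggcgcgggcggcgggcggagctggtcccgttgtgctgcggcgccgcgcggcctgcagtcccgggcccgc
SAT1: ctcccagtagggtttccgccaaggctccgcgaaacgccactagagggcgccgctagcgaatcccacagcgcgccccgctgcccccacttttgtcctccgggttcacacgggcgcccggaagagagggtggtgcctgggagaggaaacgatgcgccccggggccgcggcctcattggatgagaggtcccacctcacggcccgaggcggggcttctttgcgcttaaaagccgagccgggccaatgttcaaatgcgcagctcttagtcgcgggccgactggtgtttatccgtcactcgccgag
CACGTG, which reads the same on both strands, starts at bases -29 and 6 from the start in this ODC1 window and at -199 in the SRM window. The windows of SAT1, OAZ1, OAZ2, AMD1 and SMS do not hold these letters. Windows with the motif were 2 of 10 for these genes and 7.26% of all 35116 windows. The 10 are not all distinct, as the AMD1 windows that begin at 110874534 and 110874535 are nearly the same. By gene, 2 of the 7 held the motif in any window, against 8.78% of all 27305 genes. The match is a description of the letters only, and binding was not measured.

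Of the antizyme genes, OAZ2 rose while OAZ1 was not called. OAZ2 (ENSG00000180304, chromosome 15, 64979772 to 64995480, minus strand) had 104 and 104 CPM with CBL0137, against 62.9 and 58.3 CPM with DMSO. Both treated libraries were above both vehicle libraries, 1.72-fold on average (log2 fold change 0.78, SE 0.06, edgeR adjusted p = 1.7e-14). The deposited FPKM was 37.04 and 36.6 with CBL0137 against 20.7 and 19.0 with DMSO. The 13 alternative fits kept the call, between 0.71 and 0.94, but a fold limit of 2 would not pass it.

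OAZ1, the more abundant antizyme gene (ENSG00000104904, chromosome 19, 2269508 to 2273489, plus strand), had 217 and 232 CPM with CBL0137 and 251 and 220 CPM with DMSO. The libraries overlapped, and the log2 fold change was -0.07 (SE 0.06, edgeR adjusted p = 0.308). It turned to 0.09 with library size alone (edgeR adjusted p = 0.156). Once the trend with GC content and length was removed, it was -0.37 (edgeR adjusted p = 1.3e-09), under the fold limit. OAZ2 reads per OAZ1 read were 0.480 and 0.450 with CBL0137, against 0.250 and 0.265 with DMSO. Antizyme proteins are made through a ribosomal frameshift that polyamines promote, which counts of reads per gene do not show.

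AZIN1 (ENSG00000155096, chromosome 8, 103838339 to 103906092, minus strand) had 225 and 241 CPM with CBL0137, against 330.1 and 346 CPM with DMSO. Both treated libraries were lower, and the log2 difference, -0.53 (SE 0.05, edgeR adjusted p = 1.2e-11), lay just under the fold limit. Without CBL0137 replicate 2 it was -0.59 and called lower. The other 12 alternatives left it uncalled, up to -0.35 with the GC and length trend removed. AZIN1 reads per ODC1 read were 0.554 and 0.617 with CBL0137 and 1.04 and 1.12 with DMSO.

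**Figure D2:**
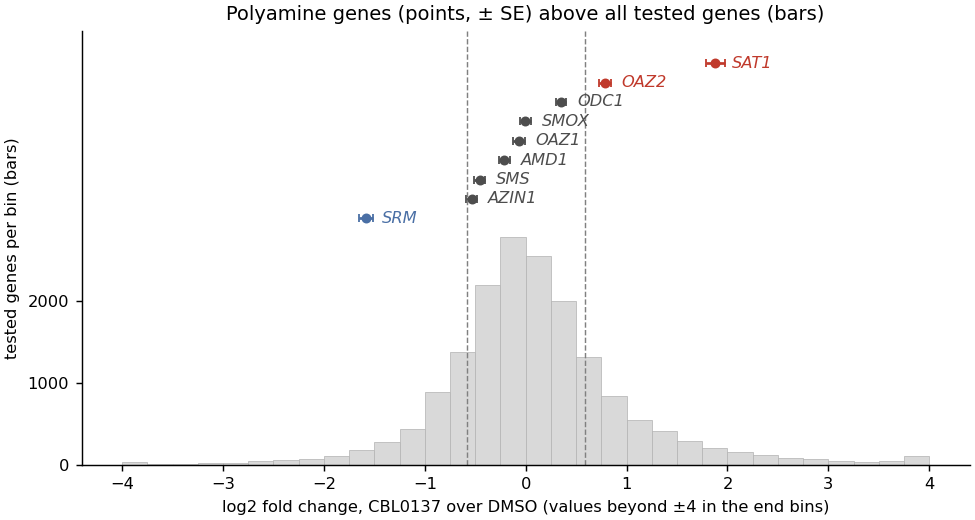
Log2 fold change of CBL0137 over DMSO for the 9 tested polyamine genes (points, ± SE; red called higher, blue called lower, dark grey not called), stacked above the distribution of all 17374 tested genes (bars). Dashed lines mark the fold limit of 1.5; SAT1 and SRM lie toward opposite ends of the distribution and the rest nearer its centre.

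Among the catabolic genes SAT1 rose, SMOX stayed near its vehicle level in the main fit and PAOX was barely detected. SAT1, the spermidine and spermine acetyltransferase (ENSG00000130066, chromosome X, 23801290 to 23804327, plus strand), had 46.6 and 49.1 CPM with CBL0137, against 13.5 and 12.5 CPM with DMSO. That is the widest separation among the 9 tested genes, 3.68-fold on average (log2 fold change 1.88, SE 0.09, edgeR adjusted p = 4.0e-21), at percentile 95.7 of all tested genes. In raw reads these were 1024 and 1087 with CBL0137 and 255 and 233 with DMSO. The deposited FPKM, at 29.7 and 28.4 with CBL0137 against 5.62 and 5.59 with DMSO, set the groups further apart. SAT1 was called higher in all 13 alternative fits, between 1.81 and 2.35.

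SMOX, which encodes spermine oxidase (ENSG00000088826, chromosome 20, 4101627 to 4168394, plus strand), had 101 and 98.5 CPM with CBL0137 and 99.9 and 100.4 CPM with DMSO. The DMSO libraries lay inside the range of the CBL0137 libraries, and the log2 fold change was -0.0032 (SE 0.06, edgeR adjusted p = 0.967). Its sign follows the scaling. The value was 0.16 with library size alone (edgeR adjusted p = 0.018). With the GC and length trend removed it was -0.29 (edgeR adjusted p = 2.6e-06), also under the fold limit. SMOX had 2.17 and 2.01 reads per SAT1 read with CBL0137, against 7.41 and 8.02 with DMSO.

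PAOX, the oxidase of acetylated polyamines (ENSG00000148832, chromosome 10, 135192765 to 135205198, plus strand), had 4 and 1 reads with CBL0137 and 3 and 3 reads with DMSO. It was the polyamine gene that failed the low-count filter and was not tested. The summed rates gave a ratio of 0.709 (CBL0137 over DMSO, exact 95% Poisson interval 0.171 to 2.79, counting error only), so a difference of this size was not detectable at this depth. In GENCODE, 61.0% of PAOX exon bases are shared with ENSG00000254536, which had 37 and 51 reads with CBL0137 and 41 and 43 reads with DMSO. The table keeps reads that fall in more than 1 gene apart as ambiguous, so the PAOX counts may leave out reads of that stretch.

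Levels were compared between genes on the deposited FPKM, which is per length. With CBL0137, OAZ1 was highest at 263 ± 14.3 FPKM, followed by ODC1 at 114 ± 3.29 FPKM (SD, n = 2). Then came SMS at 52.0 ± 3.26, AZIN1 at 43.5 ± 0.0061, OAZ2 at 36.8 ± 0.324, SMOX at 30.7 ± 1.999 and SAT1 at 29.1 ± 0.862 FPKM. AMD1 at 23.6 ± 0.615 and SRM at 17.8 ± 0.0928 FPKM stood below them. The libraries of SMOX and SAT1 overlapped in this order, and those of the other neighbours did not.

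With DMSO, OAZ1 had 284 ± 15.3, ODC1 82.6 ± 0.495, SMS 66.6 ± 0.189 and AZIN1 59.7 ± 3.28 FPKM (SD, n = 2). SRM was next at 50.03 ± 0.0915 FPKM, above SMOX at 30.7 ± 0.586, AMD1 at 25.4 ± 0.180 and OAZ2 at 19.9 ± 1.25 FPKM. SAT1 was at 5.60 ± 0.0174 FPKM, and PAOX was last in both groups, at 0.550 ± 0.190 with CBL0137 and 0.481 ± 0.0618 FPKM with DMSO. No neighbours overlapped with DMSO. On the deposited FPKM, SRM thus stood below SMOX, AMD1, OAZ2 and SAT1 with CBL0137, and above all 4 with DMSO. The order depends on the measure used. The deposited FPKM and counts also differ in the fold of single genes, such as SAT1 and DHPS, for a reason that was not tested. Per kilobase of all annotated exons, SRM at 16.7 CPM with CBL0137 stood below SMOX at 33.9 and SAT1 at 19.3 CPM but above OAZ2 at 13.6 and AMD1 at 11.1 CPM, and with DMSO, at 49.9 CPM, it stood above all 4. On that scale ODC1 had 120.5 CPM with CBL0137 and 94.6 CPM with DMSO, above OAZ1 at 65.4 CPM with CBL0137 and 68.6 CPM with DMSO.

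**Figure D3:**
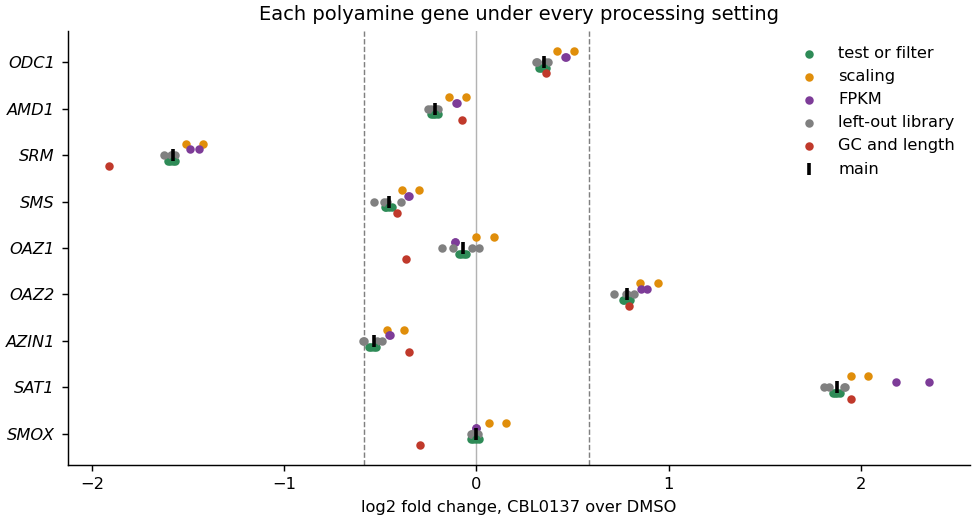
Log2 fold change of each tested polyamine gene under the main fit (black tick) and 13 alternative fits (coloured points by kind of change), with dashed lines at the fold limit. SRM, OAZ2 and SAT1 stay outside the limit on 1 side throughout, AZIN1 lies beside it, and OAZ1 and SMOX move across 0.

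The 50 genes of 6 related lists, of which 39 were tested, had 4 called higher and 12 lower, beside the 18.2% higher and 15.1% lower of all tested genes, with a median log2 fold change of -0.26 against 0.01 over all tested genes. Genes that supply ornithine and arginine were the list with the lowest median, -0.89 over 8 tested of 12. Of these 5 fell and 0 rose in edgeR, which called 15.1% of all tested genes lower. DESeq2 called 5 lower and 0 higher, against 10.9% lower of all its tested genes. Unadjusted p was under 0.05 for 7 lower and 0 higher. By adjusted p alone, 30.9% of all tested genes were lower and 30.8% higher, so the unadjusted shares are at least that.

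SLC7A1, the main importer of arginine, lysine and ornithine, had 110.1 and 126 CPM with CBL0137, against 579 and 583 CPM with DMSO. Its log2 fold change was -2.30 (SE 0.06, edgeR adjusted p = 1.1e-30), below those of all the polyamine genes tested. ASS1, which makes argininosuccinate in arginine synthesis, had 72.0 and 83.0 CPM with CBL0137 against 269 and 259 CPM with DMSO (-1.77, SE 0.06). ASL, the lyase of the next step, fell by 1.09 on the log2 scale (SE 0.15), the cationic amino acid transporter gene SLC7A2 by 1.01 (SE 0.05) and the mitochondrial ornithine carrier gene SLC25A15 by 0.78 (SE 0.08). In all 5 genes both CBL0137 libraries were below both DMSO libraries. These 5 were picked by their calls, and the groups did not overlap for 79.9% of all tested genes. The arginase gene ARG2 (-0.31, SE 0.11), the ornithine aminotransferase gene OAT (-0.31, SE 0.21) and ALDH18A1 (-0.19, SE 0.07), which makes the precursor of ornithine and proline, were not called. OAT rested on single libraries, at -0.68 and called lower without CBL0137 replicate 2 and at -0.018 without CBL0137 replicate 1.

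In S-adenosylmethionine synthesis and the salvage of methylthioadenosine, the by-product of both aminopropyl transfers, 3 of 7 tested genes fell and 0 rose in edgeR (median -0.43), against 15.1% lower of all tested genes. Unadjusted p was under 0.05 for 5 lower and 1 higher, against at least 30.9% lower and 30.8% higher of all tested genes. DESeq2 called 3 lower and 0 higher, against 10.9% lower of its tested genes. MTAP, the phosphorylase that starts the salvage, had 35.3 and 42.1 CPM with CBL0137, against 83.4 and 88.2 CPM with DMSO. Its log2 fold change was -1.15 (SE 0.07, edgeR adjusted p = 1.6e-17), and the groups stood well apart. The later salvage gene APIP was at -0.76 (SE 0.10), or -0.58 and not called with FPKM + 1. ENOPH1, also of the salvage, was at -0.59 (SE 0.06), at the edge of the limit, and 8 of 13 alternatives did not call it, among them those without CBL0137 replicate 1 (-0.56) or DMSO replicate 1 (-0.55). MAT2A, which makes S-adenosylmethionine, was at -0.43 (SE 0.05), and ADI1, of the end of the salvage, was at 0.37 (SE 0.06).

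Of 9 MYC network genes, 2 rose and 1 fell (median 0.02), close to the 18.2% higher and 15.1% lower of all tested genes. MYC had 227 and 228 CPM with CBL0137 against 382 and 380.2 CPM with DMSO, which gave -0.74 on the log2 scale (SE 0.05, edgeR adjusted p = 3.3e-16). MAX, its DNA-binding partner, was at 0.0061 (SE 0.07, edgeR adjusted p = 0.946). MXD4, which pairs with MAX in place of MYC and represses, had 76.2 and 67.1 CPM with CBL0137, against 13.2 and 12.8 CPM with DMSO (2.46, SE 0.09). MXD1, of the same family, had 16.9 and 17.3 CPM against 5.13 and 6.45 CPM (1.56, SE 0.14). In both MXD genes the treated libraries were the high ones, without overlap, and 79.9% of all tested genes had no overlap.

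Of 8 tested genes of polyamine transport, 2 fell and 1 rose (median -0.24), near the 15.1% lower and 18.2% higher of all tested genes. SLC3A2, the shared heavy chain of amino acid transporters that has been tied to polyamine export, had 219.8 and 225 CPM with CBL0137, against 597 and 541 CPM with DMSO (-1.35, SE 0.05). GPC1, a glypican of the cell surface tied to polyamine uptake, rose by 0.87 (SE 0.16), from a low level, but was not called with the GC and length trend removed (0.34) or with FPKM + 1 (0.54). ATP13A4, of the family of polyamine transporting ATPases, had 33 and 17 reads with CBL0137 and 37 and 42 with DMSO (-0.89, SE 0.36). ATP13A4 lost this call in 7 of 13 alternatives, among them DESeq2 (-0.91) and those without CBL0137 replicate 2 (-0.49) or DMSO replicate 2 (-0.80). Its abundant relative ATP13A3 was at -0.02 (SE 0.05), with a sign that turned to 0.14 with library size alone and 0.20 with FPKM + 1.

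Among the further genes of the pathway 1 of 3 tested rose and 1 fell, against 18.2% higher and 15.1% lower of all tested genes. Both were at 43 to 114 reads a library. DESeq2 called 0 of the 3, against 10.9% of its tested genes in each direction. AZIN2, the other antizyme inhibitor gene, was at 0.67 (SE 0.25), a call that 7 of 13 alternatives lost, among them those without CBL0137 replicate 2 (0.56) or DMSO replicate 2 (0.60). SATL1, a relative of SAT1, was at -0.64 (SE 0.22), a call that 9 of 13 lost, among them those without CBL0137 replicate 1 (-0.48) or DMSO replicate 2 (-0.38). In hypusine synthesis, spermidine modifies the translation factor EIF5A. Of its 4 genes 0 were called by edgeR or DESeq2, against 33.4% and 21.8% of their tested genes in either direction. Unadjusted p was under 0.05 for 2 lower and 1 higher, against at least 30.9% lower and 30.8% higher of all tested genes. FPKM + 1 called 1 lower, against 7.85% of all tested genes. This was DHPS, which attaches the spermidine-derived group. DHPS had 25.9 and 32.5 FPKM with CBL0137 against 48.8 and 47.5 FPKM with DMSO, but 85 and 86 reads against 81 and 45 (log2 fold change 0.21, SE 0.24). The direction in counts rests on the second DMSO library, with 0.66 and a call higher without DMSO replicate 1, -0.16 without DMSO replicate 2 and -0.0026 with the GC and length trend removed, so no direction is read for DHPS.

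**Figure D4:**
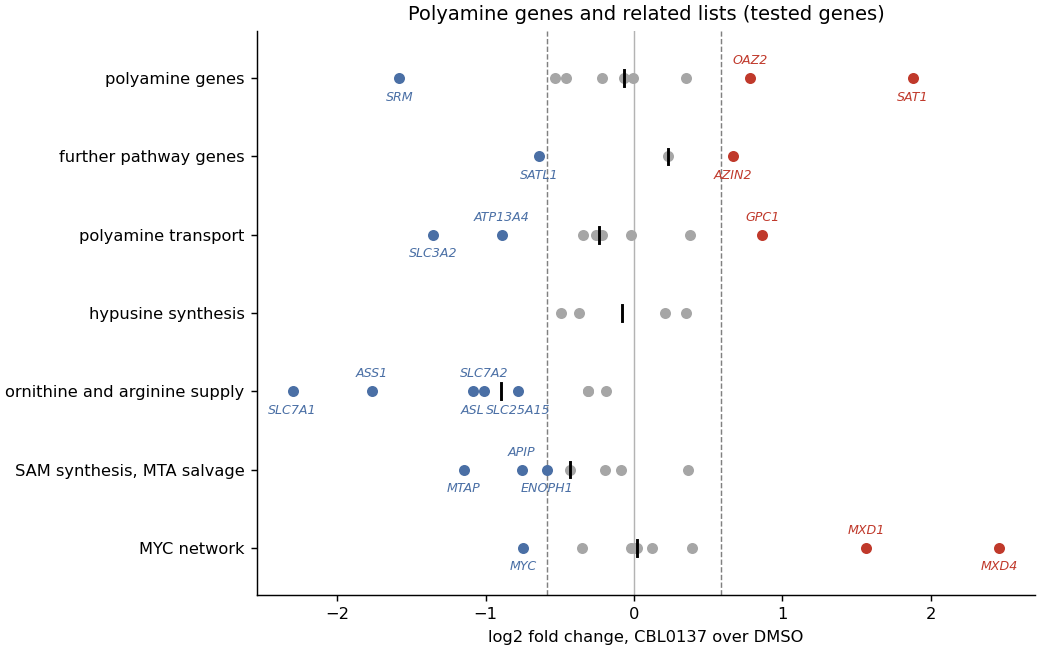
Log2 fold change of CBL0137 over DMSO for every tested gene of the polyamine genes and 6 related lists (points; red called higher, blue called lower, grey not called), with each list's median (black tick) and the fold limit (dashed). Called genes are named; the ornithine and arginine list has its median at -0.89, left of the others.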

How the data were processed

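RNA-seq libraries of SKNMC cells (2 with CBL0137, 2 with DMSO) were grouped by their titles. The deposited table gives whole-number read counts and FPKM values for each gene, both made by the authors. Per the series' design text, reads were trimmed with Trim Galore, aligned to hg19 with HISAT2 and counted with HTSeq 0.11.1, and differential genes were called with DESeq2 1.26.0. The authors computed the deposited FPKM from reads, gene length and depth; for the tool, the annotation release and the strand setting, the sources used here name none. The submitters' processing notes also list mm10, a mouse build, with no role.

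Tests on the counts used edgeR 4.0.16 in R 4.3.3 (quasi-likelihood F test, TMM, filterByExpr), with Benjamini-Hochberg adjustment over all 17374 tested genes. Calls needed an adjusted p under 0.05 and a fold above 1.5. SE is the absolute log2 fold change over the square root of F. CPM uses TMM effective library sizes, so it is a share of the RNA sequenced and would not show a change in RNA per cell. Summary entries that name no gene were left out; reads in no gene were 10.3% and 10.2% with CBL0137 and 8.52% and 8.82% with DMSO, and ambiguous reads 8.75% and 8.78% against 9.34% and 9.27%. Replicates differed by more than sampling noise (chi-square per degree of freedom 2.82 for CBL0137, 3.12 for DMSO). With 2 against 2 an exact two-sided permutation test of a single value cannot go below 0.333, so none is given.

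Positions and exons came from GENCODE 44 on GRCh37, the build of hg19. By that annotation 6.87% of OAZ1 exon bases overlap JSRP1 and 7.22% of OAZ2 exon bases a further gene on the opposite strand, and genes on the same strand overlap 6.40% of OAZ1, 3.63% of SAT1 and 2.59% of AZIN1 exon bases. Annotated pseudogene copies of the members held 13 reads at most over all libraries. Alternatives used DESeq2 1.42.0, limma 3.58.1 on log2(FPKM + 1) and log2(FPKM + 0.1), other scalings, filters and limits, a replicate block, and each library left out. A fit with the trend of CPM on GC content and exon length removed (loess, span 0.3, 99.3% of tested genes) was added after seeing the data. The edgeR, DESeq2 and limma fits were tested on simulated data with known changes. The members and the gene lists were chosen with earlier results of these data known. The text names all members, the called genes of each related list, MYC and MAX; other genes and the ratios between members were chosen after their values were seen.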

Additional observations from a re-analysis of the deposited data

How the results depend on the processing

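The calls of SRM, OAZ2 and SAT1 held in all 13 alternative fits. Of the 117 member values under these fits, 109 kept direction and call, 1 passed the limit (AZIN1 without CBL0137 replicate 2) and 7 changed sign. Sign changes were those of OAZ1 with library size alone (0.091), upper-quartile factors (0.00023) and without DMSO replicate 1 (0.015), and SMOX with library size alone (0.16), upper-quartile factors (0.065), the stricter filter (0.011) and without CBL0137 replicate 2 (0.011, down to -0.026 without replicate 1). MAX turned negative with DESeq2 (-0.0084), no filter (-0.016), the GC and length trend removed (-0.033) and without CBL0137 replicate 2 (-0.015) or DMSO replicate 2 (-0.10, against 0.086 without replicate 1). ATP13A3 turned positive with library size alone (0.14), upper-quartile factors (0.047), FPKM (0.195 with a pseudocount of 1, 0.202 with 0.1) and the GC and length trend removed (0.14), and DHPS negative with FPKM (-0.71 and -0.73), the GC and length trend removed (-0.0026) and without DMSO replicate 2 (-0.16, against 0.66 without replicate 1). Of the 312 values of the other genes given with a fold change, 262 kept direction and call, 34 lost their call, 2 gained one and 14 changed sign. The cause of these shifts was not tested.

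The members' median of -0.07 moved to 0.091 (library size alone), 0.00023 (upper-quartile factors) and -0.29 with the GC and length trend removed. With a library left out it lay between -0.18 (without DMSO replicate 2) and -0.024. It was -0.15 with DESeq2 and -0.16 with no filter. Those medians are not over the same genes, since they take in PAOX (-0.51 and -0.49), which the main fit did not test. Leaving out a library gave 1 to 2 members called lower. With no fold limit 4 members were called lower, and a fold above 2 left 1 called higher. Related genes had 8 higher and 20 lower calls with no fold limit, 2 and 6 past a fold of 2, 2 higher with FPKM + 1 and 2 higher with the GC and length trend removed. All tested genes had 5347 higher and 5375 lower calls with no fold limit, 1988 and 1218 past a fold of 2, and 1860 and 1363 with FPKM + 1. With library size alone they had 4138 higher and 1877 lower, against 3166 and 2632.

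Across genes, the deviations of same-numbered libraries did not go together (correlation -0.0015). With 2 libraries a group, this value cannot show whether the replicate numbers pair the libraries. With the replicate block all tested genes had 3129 higher and 2612 lower calls, and the members' calls stayed 2 higher and 1 lower (median -0.07). PAOX and other genes of few reads are limited by depth.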

Other observations

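A gene that shares 6.40% of the exon bases of OAZ1 on the same strand, ENSG00000273734, had 0 reads in each library but a deposited FPKM of 77.3 and 77.1 with CBL0137 and 88.3 and 83.8 with DMSO. Reads counted for JSRP1, which overlaps OAZ1 on the opposite strand, were 17 and 6 with CBL0137 and 1 and 0 with DMSO, against 4774 and 5143 with CBL0137 and 4754 and 4092 with DMSO for OAZ1.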
